A study of Mus musculus with 12 samples.

Results

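Molecular chaperones hold and fold newly made or damaged proteins, and each compartment of the cell has its own set. In the cytosol, Hsp70 proteins bind short unfolded stretches and are driven by J proteins (which start ATP hydrolysis) and Hsp110 proteins (which exchange the nucleotide), Hsp90 acts later on kinases and receptors, and the ring-shaped chaperonin TRiC folds actin and tubulin. Mitochondria have their own Hsp70 and chaperonin. The endoplasmic reticulum (ER) has the Hsp70 BiP, the Hsp90 Grp94, lectin chaperones and disulfide isomerases, and its genes are raised by the unfolded protein response (UPR), while cytosolic and mitochondrial chaperone genes are known targets of the heat shock factor Hsf1. T cells that have been activated grow, divide and secrete cytokines, and so make much protein in all of these compartments.

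The 35 genes described here were taken by name from a list that was chosen with earlier results of these data known. Their counts are therefore set beside the share of all genes as a description only. They are 9 genes of cytosolic Hsp70, Hsp90, Hsp110 and J proteins, 3 mitochondrial genes, 8 TRiC subunits, 13 ER chaperones and helpers, and *Xbp1* and *Herpud1*. All 35 were found among the 24439 gene names measured, and all 35 were among the 12442 genes kept for the tests, which had over 1 TPM (a gene's share of the transcripts in a library, corrected for gene length) in at least 1 library. *Hspa1a* and *Hspa1b*, the heat-inducible cytosolic Hsp70 genes, passed only through stimulated libraries, so that their calls between stimulated and unstimulated cells follow in part from the filter. The other 33 were over 1 TPM in all 12 libraries.

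RNA-Seq was done on CD4 T blast cells (TB) from spleens of C57BL/6 C42 mice, which carry a human *IL3* and *CSF2* transgene in all groups. All cultures were first activated with concanavalin A (ConA, a lectin that crosslinks the T cell receptor) at 2 µg/ml over 40 h and then grown with IL-2 at 50 U/ml. The 4 groups of 3 libraries were TB IL-2, kept in IL-2; TB IL-2nil, with IL-2 taken away for the last 16 h; and TB+ IL-2 and TB+ IL-2nil, the same after 2 h with PMA at 20 ng/ml and the calcium ionophore A23187 at 2 µM (PMA/I), which together mimic T cell receptor signaling. Neither the labels nor the methods say whether the 3 libraries of a group came from separate animals, so the P-values measure the spread between these samples, which may be technical.

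The labels of 2 libraries were against the study's own table of expression values, in which TB IL-2nil replicate 3 and TB+ IL-2 replicate 3 are in each other's place. For this check the TPM values were given the same distribution in every library (quantile normalization), unlike the scaling of the main fit. Of 12 columns of that table, 10 held these values of the library with the same label and 2 held those of the other. In each column 100% of the values, over 1381 genes, were within 0.1%, with at most 1.81% for the next closest library. *Il2*, which PMA/I induces, was at 1095 FPKM or more in the 6 libraries placed as stimulated and at 1.18 or less in the others. Both libraries were therefore placed as in that table, and each comparison is given also without them and by their labels. T cell markers (*Cd3e*, *Cd3d*, *Cd3g* and *Cd4*) summed to 242 to 504 FPKM, against at most 12.1 for CD8 T cell, 7.31 for B cell, 1.65 for myeloid and 0.0832 for NK cell markers. The deepest library had 3.05 times the relative depth of the shallowest, and as no counts were available no counting error is given.

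Heat shock elements and ER stress elements are the DNA motifs by which Hsf1 and the UPR factors are known to reach chaperone genes. Promoter stretches are shown for genes in which a search for exact letters found them. Promoter windows of RefSeq (build GRCm38.p6, 250 bases before to 50 after the start) were matched for 28 of the 35 genes, all but *Hspa8*, *Hsp90aa1*, *Hsp90ab1*, *Hspa9*, *Cct4*, *Hyou1* and *Manf*. The ER stress element, searched as CCAAT and CCACG with 9 bases of any kind between them, on both strands, was in 7 of the 28 windows (*Calr*, *Canx*, *Creld2*, *Dnajc3*, *Hsp90b1*, *Hspa5* and *Pdia6*) and in 0.137% of the 27025 genes of the table. The second kind of ER stress element, ATTGG and CCACG with 1 base between them, was in *Herpud1* and *Dnajb11* and in 0.0444% of genes. The heat shock element, searched as the triplets GAA, TTC and GAA or TTC, GAA and TTC with 2 bases between neighbours, was in *Hspd1*, *Hspe1* and *Hsph1* and in 0.662% of genes. The UPR element TGACGTGG was in 0 of the 28 windows and in 0.714% of genes. Members such as *Sdf2l1*, *Pdia4*, *Hspa1a*, *Hspa1b* and *Dnajb1* had windows without any match to these motifs, so the search does not class them. Only exact letters were searched, so a window without a match may still hold an element. The matches of *Hsph1* (at 16 to 28 and 37 to 49 in its 2 windows) and *Dnajb11* (at 8 to 18) lie after the start and are not printed. The stretches upstream of the RefSeq start are printed 5′ to 3′ on the strand of the gene, with mm9 coordinates and the motif in capitals.
Hspe1 (chr1:55144898-55144925, plus strand, -89 to -72 from the start): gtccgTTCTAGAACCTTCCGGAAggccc
Hspa5 (chr2:34627540-34627568, plus strand, -65 to -47): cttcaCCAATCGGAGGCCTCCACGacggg
Hsp90b1 (chr10:86168363-86168421, minus strand, -212 to -194): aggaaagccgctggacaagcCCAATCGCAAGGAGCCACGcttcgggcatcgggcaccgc
Hsp90b1 (chr10:86168258-86168316, minus strand, -107 to -89): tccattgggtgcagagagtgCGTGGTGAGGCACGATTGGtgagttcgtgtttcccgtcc
Canx (chr11:50139282-50139340, minus strand, -145 to -127): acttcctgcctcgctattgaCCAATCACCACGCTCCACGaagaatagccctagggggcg
Pdia6 (chr12:17273277-17273335, plus strand, -98 to -80): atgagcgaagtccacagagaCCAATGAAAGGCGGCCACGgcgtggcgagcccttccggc
Dnajc3 (chr14:119337029-119337087, plus strand, -105 to -87): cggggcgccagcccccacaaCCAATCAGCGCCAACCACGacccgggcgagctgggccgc
Calr (chr8:87370954-87371012, minus strand, -162 to -144): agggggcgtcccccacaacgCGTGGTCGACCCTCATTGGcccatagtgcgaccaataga
Creld2 (chr15:88649930-88649988, plus strand, -126 to -108): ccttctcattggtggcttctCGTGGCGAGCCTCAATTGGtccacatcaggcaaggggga
Herpud1 (chr8:96910257-96910307, plus strand, -52 to -42): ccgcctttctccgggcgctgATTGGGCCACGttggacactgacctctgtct

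The elements of *Calr* and *Creld2* and the second copy of *Hsp90b1* lie on the opposite strand. *Hspd1* and *Hspe1*, the large and small subunits of the mitochondrial chaperonin, are transcribed away from each other and share the heat shock element shown for *Hspe1*, which is at -144 to -127 from the start of *Hspd1*. In the GENCODE M1 gene models on mm9, this stretch lies in an exon of *Hspd1* and that of *Hspa5* in an exon of *Hspa5* itself, so both are shown with 5 flanking bases, and the *Herpud1* stretch lies within *Gm15890* on the minus strand, outside its exons. The other 7 stretches overlap no gene. In the same models 4 genes with large differences lie at chr16:17130231-17132476 (*Sdf2l1*, minus strand), chr12:111928815-111940938 (*Hsp90aa1*, minus strand), chr2:34627490-34632051 (*Hspa5*, plus strand) and chr5:150416862-150438951 (*Hsph1*, minus strand), while the authors quantified RefSeq models whose ends can differ. A match to letters is a description of the window and not evidence of binding in these cells.

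The most abundant of the 35 genes in each group was *Hspa8*, the constitutive cytosolic Hsp70, with 1502 ± 341 TPM (SD, n = 3) in TB IL-2, followed by *Hsp90ab1*, the constitutive Hsp90, with 1116 ± 109 TPM (SD, n = 3). These 2 overlapped in TB IL-2, where *Hspa8* reached from 1202 to 1872 TPM and *Hsp90ab1* from 1012 to 1230.0 TPM. *Hspa1a* and *Hspa1b* were the lowest, with at most 1.71 TPM in any library. They are near-identical copies between which reads could have been split, so that their values are uncertain. Summed over all 35 genes, the scaled level was 7214 ± 974 TPM (SD, n = 3) in TB IL-2, 4060.1 ± 506 TPM in TB IL-2nil, 10684 ± 974.9 TPM in TB+ IL-2 and 10156 ± 1839 TPM in TB+ IL-2nil. As a share of the TPM of all genes kept, before scaling, these sums were 0.773% ± 0.175, 0.453% ± 0.0296, 1.07% ± 0.0634 and 0.768% ± 0.0784 (SD, n = 3). By this share TB IL-2 and TB+ IL-2nil were near equal, while their scaled sums were not.

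**Figure D1:**
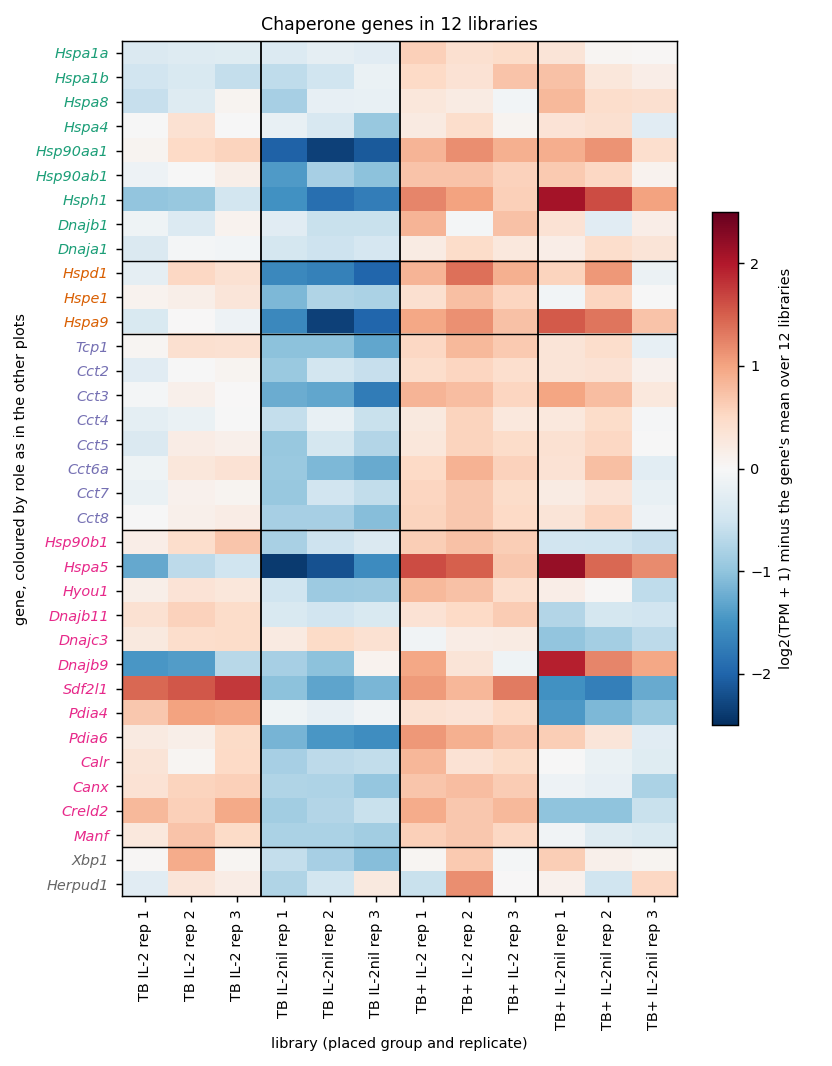
Levels of the 35 chaperone genes in 12 libraries, as log2(TPM + 1) minus each gene's mean over the libraries (red higher, blue lower, limits at 2.5 in each direction), with genes ordered and coloured by role and libraries by placed group. The TB IL-2nil columns are blue for most genes, and in TB+ IL-2nil the cytosolic, mitochondrial and TRiC rows are mostly red while *Sdf2l1*, *Pdia4*, *Creld2* and *Dnajc3* are blue.

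The first comparison asked which chaperone genes depend on IL-2 in cells that were not restimulated, by setting TB IL-2 against TB IL-2nil. Of the 35 genes, 25 had more transcript with IL-2 (adjusted P under 0.05) and 0 had less (0 at an unadjusted P under 0.05 too), where 17.3% of all 12442 genes were higher and 22.3% lower (limma, with Benjamini-Hochberg adjustment over all genes). The median difference of the 35 genes was 1.01 in log2(TPM + 1), against -0.13 over all genes tested. At more than 3-fold, 5 were higher, where the share of all genes was 4.69%. Without the 2 libraries in doubt 23 genes were higher and the median was 1.03, while by their labels 0 passed in either direction (2 at an unadjusted P under 0.05, all higher) and the median was 0.57.

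Among the cytosolic genes, 3 of 9 were higher with IL-2. *Hsp90aa1*, the inducible Hsp90, had 349, 474 and 491 TPM in TB IL-2 and 82.1, 66 and 77 TPM in TB IL-2nil. The groups lay far apart, with a difference of 2.52 (log2, SE 0.21, adjusted P = 3.51e-05), or 5.73-fold on the TPM + 1 scale. *Hsp90ab1* was higher by 1.10 (log2, SE 0.19, adjusted P = 0.00153) and *Hsph1*, an Hsp110 protein, by 0.90 (log2, SE 0.27, adjusted P = 0.0219, and 0.0541 without the libraries in doubt). *Hspa8* had 1202, 1434 and 1872 TPM with IL-2 and 1009.9, 1549 and 1573 TPM without. Its groups overlapped, and the difference was 0.13 with a 95% confidence interval of -0.37 to 0.63 (adjusted P = 0.679). *Hspa4*, also of the Hsp110 family, was at 0.63 (adjusted P = 0.0624), and passed with the replicate number as a block (adjusted P = 0.0113). The J protein genes *Dnajb1* and *Dnaja1* were at 0.34 and 0.30 and did not pass.

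All 3 mitochondrial genes were higher with IL-2. *Hspd1*, the large chaperonin subunit (Hsp60), had 133, 223 and 203 TPM in TB IL-2 and 50.0, 47.6 and 38.4 TPM in TB IL-2nil, a difference of 1.99 (log2, SE 0.30, adjusted P = 0.000705). *Hspa9*, the mitochondrial Hsp70, had 122, 159.8 and 145 TPM against 51.6, 30.7 and 39.4 TPM, a difference of 1.81 (log2, SE 0.25, adjusted P = 0.00037). *Hspe1*, the small chaperonin subunit (Hsp10), was higher by 1.06 (log2, SE 0.19, adjusted P = 0.0017). In each of these 3 genes the lowest TB IL-2 library lay above the highest TB IL-2nil library. The groups were without overlap in 27 of the 35 genes. As the share over all genes was not counted, this number cannot be read as particular to chaperone genes.

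Of the 8 TRiC subunits, 7 were higher with IL-2 and *Cct4* was not called (0.30, adjusted P = 0.194). The differences were unequal although the subunits belong to the same complex. *Cct3* had 154, 175 and 161 TPM in TB IL-2 and 67.1, 64.1 and 46.8 TPM in TB IL-2nil, a difference of 1.46 (log2, SE 0.21, adjusted P = 0.000473), while *Cct2* had 245, 297 and 312 TPM against 156, 215 and 200.2 TPM, a difference of 0.58 (log2, SE 0.16, adjusted P = 0.0161). *Tcp1* was higher by 1.39, *Cct6a* by 1.28, *Cct8* by 1.01 and *Cct5* and *Cct7* each by 0.69, and *Cct5* did not pass without the libraries in doubt (adjusted P = 0.0709).

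Of the 13 ER genes, 11 were higher with IL-2. *Sdf2l1*, a partner of ER J proteins, had 61.6, 67.4 and 78.3 TPM in TB IL-2 and 10.4, 8.37 and 9.61 TPM in TB IL-2nil. This was the largest difference among the 35 genes, at 2.74 (log2, SE 0.18, adjusted P = 1.35e-05), or 6.69-fold. *Pdia6*, a disulfide isomerase, was higher by 1.67 (log2, adjusted P = 0.000353), *Creld2*, an ER protein induced by ER stress, by 1.51 (adjusted P = 0.000149), *Canx*, the membrane-bound lectin chaperone, by 1.34 (adjusted P = 0.000357) and *Manf*, an ER stress-induced protein of the ER lumen, by 1.3 (adjusted P = 0.000166). *Hspa5*, which encodes BiP, had 165, 256 and 283 TPM against 75.9, 88.6 and 134 TPM, a difference of 1.23 (log2, SE 0.34, adjusted P = 0.0155). *Hyou1*, *Pdia4*, *Hsp90b1* (Grp94), *Calr* (the soluble lectin chaperone) and *Dnajb11* (an ER J protein) were higher by 0.89 to 1.02. The 2 exceptions were both J protein genes. *Dnajc3* had 40.7, 46.5 and 47.3 TPM with IL-2 and 39.9, 47.8 and 44.6 TPM without, a difference of 0.02 with a 95% confidence interval of -0.31 to 0.36, and *Dnajb9* was at -0.59 (adjusted P = 0.234).

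*Xbp1*, a transcription factor of the UPR, had 77.1, 146 and 78.6 TPM with IL-2 and 49.7, 42.3 and 35.8 TPM without, a difference of 1.17 (log2, SE 0.28, adjusted P = 0.00788). Values per gene do not tell its spliced from its unspliced form. *Herpud1*, which serves ER-associated degradation, overlapped between the groups (0.40, adjusted P = 0.479).

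The 3 B cell markers (*Cd79a*, *Cd79b* and *Ms4a1*) also differed between these groups, with sums of 2.18 to 3.36 FPKM in TB IL-2 and 5.53 to 7.31 FPKM in TB IL-2nil, opposite in direction to the chaperone genes, and 0.809 to 0.915 and 1.18 to 3.22 FPKM in the 2 stimulated groups. Their part in the result was not tested. In these bulk samples fewer cells of a type and less RNA per cell cannot be told apart.

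**Figure D2:**
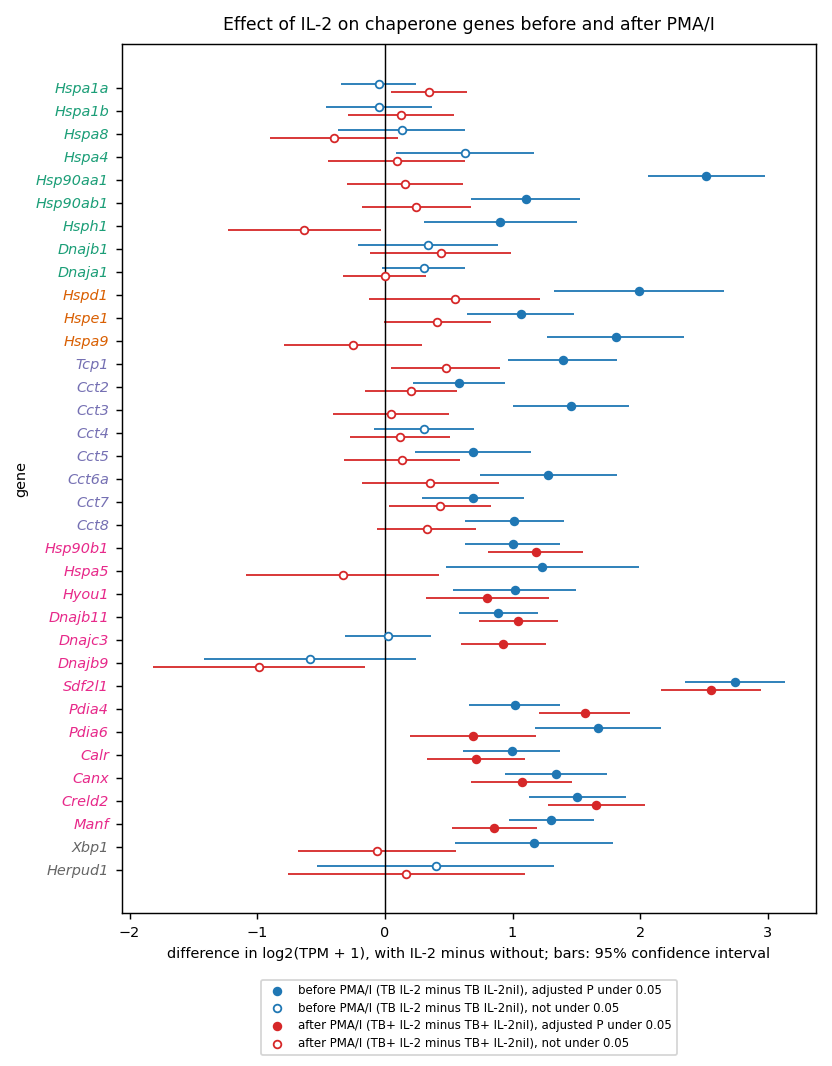
Difference in log2(TPM + 1) between cells with and without IL-2 for each of the 35 genes, before PMA/I (blue) and after it (red), with 95% confidence intervals and filled points for an adjusted P under 0.05. Before PMA/I, 25 genes have filled points to the right of 0, and after PMA/I the 11 filled points are all ER genes, with *Sdf2l1* farthest right in both at 2.74 and 2.56.

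The same question was asked after 2 h of PMA/I by setting TB+ IL-2 against TB+ IL-2nil. Here 11 of the 35 genes were higher with IL-2 and 0 lower (2 at an unadjusted P under 0.05, in limma), where 12.9% of all genes were higher and 8.4% lower. The median was 0.34 in log2(TPM + 1), against -0.04 over all genes, and without scaling between libraries 0.72 against 0.23. All 11 were ER genes, out of 13, and 0 of the 22 other genes passed (3 higher and 1 lower at an unadjusted P under 0.05). The medians were 0.93 for the ER genes and 0.16 for the others. Without scaling between libraries 12 of the 35 genes were higher and 0 lower. At an unadjusted P under 0.05 these counts were 21 and 0, more than the 13 ER genes. The limit to ER genes is therefore stated for the scaled values only. At more than 3-fold, 2 genes were higher, where the share of all genes was 3.21%. Without the libraries in doubt 8 genes were higher, with *Hyou1* (adjusted P = 0.0515), *Pdia6* (0.0937) and *Calr* (0.0581) no longer called, and by their labels 0 passed (4 higher and 1 lower at an unadjusted P under 0.05) and the median turned to -0.15. *Dnajb9* was lower without TB+ IL-2 replicate 1 (-1.27, adjusted P = 0.0498) and *Hsph1* without TB+ IL-2nil replicate 3 (-0.92, adjusted P = 0.0305).

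*Sdf2l1* had 47.8, 40.6 and 56.4 TPM in TB+ IL-2 and 7.13, 6.18 and 8.80 TPM in TB+ IL-2nil, a difference of 2.56 (log2, SE 0.18, adjusted P = 2.82e-05). *Creld2* had 33.7, 28.3 and 31.0 TPM against 8.16, 8.13 and 11.4 TPM, a difference of 1.66 (log2, SE 0.17, adjusted P = 0.000196). In neither gene did the IL-2 difference change with PMA/I by the test of the change itself, with 95% confidence intervals of -0.74 to 0.37 and -0.39 to 0.68. *Pdia4*, a disulfide isomerase, had 62.8, 60.9 and 67.4 TPM with IL-2 and 17, 21.5 and 24.8 TPM without, a difference of 1.57 (log2, SE 0.16, adjusted P = 0.000194). *Hsp90b1* was higher by 1.18, *Canx* by 1.07, *Dnajb11* by 1.05, *Manf* by 0.86, *Hyou1* by 0.80, *Calr* by 0.71 and *Pdia6* by 0.69 (adjusted P = 0.0495). *Dnajc3*, which was not called before PMA/I, had 32.2, 38.9 and 39.4 TPM with IL-2 and 16.8, 18.5 and 21.4 TPM without, a difference of 0.93 (log2, SE 0.15, adjusted P = 0.00214).

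The ER genes that did not pass were *Hspa5*, at -0.33 with a 95% confidence interval of -1.09 to 0.43, and *Dnajb9*, at -0.99 (adjusted P = 0.0864). *Hspa5* had 1246, 1131 and 640.2 TPM in TB+ IL-2 and 1815, 1083 and 912 TPM in TB+ IL-2nil, and the groups overlapped. Outside the ER, *Hsp90aa1* had 608, 749.8 and 624 TPM with IL-2 and 628, 728 and 449 TPM without, also overlapping (0.16, 95% confidence interval -0.30 to 0.61). *Hspa9* was at -0.25 and *Cct3* at 0.05, with overlap in both.

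The response to PMA/I with IL-2 kept was measured by setting TB+ IL-2 against TB IL-2, which shares TB IL-2 with the first comparison and TB+ IL-2 with the second. Of the 35 genes 13 were higher after PMA/I and 2 lower, where 11.8% of all genes were higher and 23.3% lower. The median was 0.46 in log2(TPM + 1), against -0.22 over all genes. Among the 33 genes over 1 TPM throughout, 11 were higher. The counts moved with the scaling between libraries, from 13 higher and 2 lower (86.7% higher) to 6 and 2 (75%) with quantile normalization, where the median was 0.16, and to 6 and 0 (100%) without scaling. The genes higher were 5 without TB+ IL-2 replicate 1, 6 without TB IL-2 replicate 1 and 7 without TB+ IL-2 replicate 2. Without the libraries in doubt 7 were higher and 1 lower, while by their labels 0 passed (1 higher and 1 lower at an unadjusted P under 0.05) and the median turned to -0.06. With the replicate number as a block 18 were higher, the additional genes being *Dnajb1* (adjusted P = 0.0129), *Hspd1* (0.0233), *Cct4* (0.0221), *Cct5* (0.0457) and *Cct8* (0.0304).

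With IL-2 kept, *Hspa5* had the largest response, from 165, 256 and 283 TPM to 1246, 1131 and 640.2 TPM, a difference of 2.07 (log2, SE 0.34, adjusted P = 0.00111). *Hsph1* went from 21.0, 21.6 and 30.8 TPM to 101, 87.3 and 65.4 TPM, a difference of 1.74 (log2, SE 0.27, adjusted P = 0.000766). These were the 2 genes past 3-fold, where the share of all genes was 3.94%. *Dnajb9*, the ER J protein gene ERdj4, rose by 1.57 (adjusted P = 0.00842) and *Hspa9* by 1.11 (adjusted P = 0.0054). *Hsp90aa1* rose by 0.60 (adjusted P = 0.0436) and *Hsp90ab1* by 0.66 (adjusted P = 0.0225), and neither passed without the libraries in doubt (adjusted P = 0.0861 and 0.0508). *Pdia4* and *Sdf2l1* fell by 0.47 and 0.51 on the log2 scale (adjusted P = 0.0419 and 0.0436), close to the threshold, and over 21 alternatives these calls were kept in 7 and 8. With 1 library left out, both were called in 1 of 12 fits (without TB+ IL-2nil replicate 3), 1 of them in 4 fits and neither in 7, and *Pdia4* did not pass without the libraries in doubt (adjusted P = 0.0807). *Hspa1a* and *Hspa1b* were below 0.25 TPM in each TB IL-2 library and at 0.756 to 1.65 TPM in TB+ IL-2.

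After IL-2 withdrawal, the response to PMA/I was measured by setting TB+ IL-2nil against TB IL-2nil. Here 27 of the 35 genes were higher after PMA/I and 2 lower, where 20.1% of all genes were higher and 41.1% lower. The median was 0.83 in log2(TPM + 1), against -0.38 over all genes. At more than 3-fold, 8 genes were higher and 0 lower, where 7.78% and 10.7% of all genes were. Among the 33 genes over 1 TPM throughout, 25 were higher. Without the libraries in doubt 23 were higher and 2 lower, and by their labels 1 was higher and 2 were lower and the median was 0.55. The median of all genes moved with the scaling, to -0.78 without it and -0.14 with quantile normalization, and the median of the 35 genes to 0.36 and 0.58. Without scaling 12 of the 35 genes were higher and 3 lower (80.0% higher, against 93.1%), and *Calr* and *Canx* turned to -0.0077 and -0.089. With the replicate number as a block, *Dnajb1* passed as higher (adjusted P = 0.0172) and *Sdf2l1* as lower (adjusted P = 0.0485).

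Of the 7 cytosolic genes over 1 TPM in all libraries 6 were higher, all but *Dnajb1* (0.54, adjusted P = 0.083). *Hspa1a* and *Hspa1b* were also called, in part through the filter, at 0.0487 to 0.444 TPM in TB IL-2nil and 0.354 to 1.71 TPM in TB+ IL-2nil. *Hsp90aa1* rose from 82.1, 66 and 77 TPM to 628, 728 and 449 TPM, a difference of 2.96 (log2, SE 0.21, adjusted P = 1.64e-06), or 7.80-fold. *Hsph1* rose from 14.4, 10.8 and 12.3 TPM to 184, 135 and 87.2 TPM, a difference of 3.28 (log2, SE 0.27, adjusted P = 4.44e-06), or 9.72-fold. *Hspa8* rose from 1009.9, 1549 and 1573 TPM to 3134, 2429 and 2354 TPM, a difference of 0.95 (log2, SE 0.23, adjusted P = 0.00368). In all 3 genes the groups did not overlap, as in 26 of the 35 genes. Here too the share over all genes was not counted, so the number is not particular to chaperone genes. *Hsp90ab1* was higher by 1.51, *Dnaja1* by 0.77 and *Hspa4* by 0.66 (adjusted P = 0.0346, and 0.16 without the libraries in doubt).

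All 3 mitochondrial and all 8 TRiC genes were higher. *Hspa9* rose from 51.6, 30.7 and 39.4 TPM to 461, 402 and 262 TPM, a difference of 3.17 (log2, SE 0.25, adjusted P = 2.93e-06), or 8.98-fold. *Hspd1* was higher by 2.25 (adjusted P = 9.06e-05) and *Hspe1* by 1.04 (adjusted P = 0.000741). *Cct3* rose from 67.1, 64.1 and 46.8 TPM to 316, 274 and 193 TPM, a difference of 2.11 (log2, SE 0.21, adjusted P = 1.17e-05), and the other subunits were higher by 0.67 (*Cct4*) to 1.39 (*Cct6a*).

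The ER genes divided, with 7 higher, 2 lower and 4 not called. *Hspa5* rose from 75.9, 88.6 and 134 TPM to 1815, 1083 and 912 TPM, the largest difference among the 35 genes at 3.64 (log2, SE 0.34, adjusted P = 9.47e-06), or 12.4-fold. *Dnajb9* rose from 15, 13 and 29.2 TPM to 108, 64.8 and 54.8 TPM (1.96, adjusted P = 0.00096), and *Pdia6* was higher by 1.60 (adjusted P = 0.000114). *Hyou1*, *Calr*, *Manf* and *Canx* were higher by 0.46 to 0.62, and *Canx* and *Hyou1* did not pass without the libraries in doubt (adjusted P = 0.158 and 0.0929). *Dnajc3* fell by 1.18 (log2, SE 0.15, adjusted P = 6.64e-05), from 39.9, 47.8 and 44.6 TPM to 16.8, 18.5 and 21.4 TPM. *Pdia4* fell by 1.02 (log2, SE 0.16, adjusted P = 0.000269), from 43.9, 41.4 and 44.9 TPM to 17, 21.5 and 24.8 TPM. *Hsp90b1* was at 0.04 (95% confidence interval -0.33 to 0.41), and with quantile normalization at -0.42 (adjusted P = 0.0213). *Dnajb11*, *Creld2* and *Sdf2l1* were at -0.14, -0.14 and -0.33 and were not called. *Xbp1* was higher by 1.11 (adjusted P = 0.00557).

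**Figure D3:**
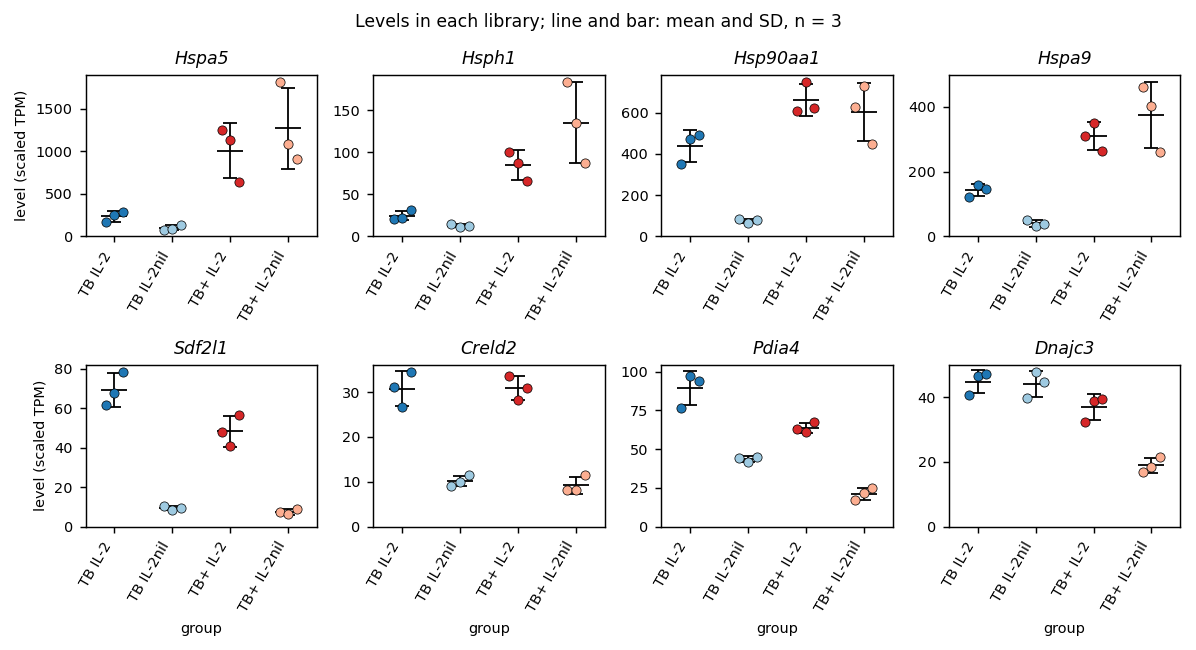
Levels of 8 chaperone genes in each of the 12 libraries (TPM scaled to a common 75th percentile, axes from 0), with mean and SD of the 3 libraries of a group. *Hspa5*, *Hsph1* and *Hspa9* are high in both PMA/I groups, while *Hsp90aa1* is low only in TB IL-2nil, at 75.1 TPM on average against 438 TPM in TB IL-2. *Sdf2l1* and *Creld2* are high in both IL-2 groups, and *Pdia4* and *Dnajc3* are lowest in TB+ IL-2nil, at 21.1 and 18.9 TPM on average.

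The interaction term tested whether the response to PMA/I differed between cells with and without IL-2, which is the same as whether the IL-2 difference changed with PMA/I. Of the 35 genes 4 had a smaller response with IL-2 and 1 a larger, where 2.66% of all genes were lower and 1.57% higher. The term was -2.36 for *Hsp90aa1* (log2, SE 0.29, adjusted P = 0.0106), -2.06 for *Hspa9* (SE 0.35, adjusted P = 0.0174), -1.54 for *Hsph1* (SE 0.39, adjusted P = 0.0496) and -1.41 for *Cct3* (SE 0.29, adjusted P = 0.0284). *Hsp90aa1*, *Hspa9* and *Cct3* started lower without IL-2 and overlapped with the IL-2 groups after PMA/I. For *Dnajc3* the term was 0.90 (SE 0.22, adjusted P = 0.0426), since it fell after PMA/I without IL-2 and was at -0.28 (adjusted P = 0.179) with it. *Hspa5* was at -1.56 (SE 0.49, adjusted P = 0.0926) and did not pass. With the replicate number as a block 8 were lower, the additional genes being *Hspd1* (adjusted P = 0.0316), *Tcp1* (0.0417), *Pdia6* (0.049) and *Xbp1* (0.0498). Without the libraries in doubt 0 passed in either direction (8 lower and 1 higher at an unadjusted P under 0.05), with *Hsp90aa1* at -2.34 (adjusted P = 0.0583) and *Hspa9* at -1.94 (adjusted P = 0.0814). By the labels the terms of all 5 genes have the same values, since exchanging these 2 libraries leaves the estimate as it is and widens the spread, and 0 passed (adjusted P = 0.914 for each; 1 higher and 0 lower at an unadjusted P under 0.05). With 1 library left out, 2 were lower in 9 of 12 fits, 3 in 2 fits and 10 in 1, without TB+ IL-2nil replicate 3, and the call of *Dnajc3* was kept in that fit and lost in the other 11. Over 21 alternatives *Hsp90aa1* and *Hspa9* were each called in 18, *Cct3* in 9, *Dnajc3* in 6 and *Hsph1* in 5. Without scaling between libraries, 0 passed (6 lower and 2 higher at an unadjusted P under 0.05), and the median of the 35 terms went from -0.40 to 0.07, and that of all genes from 0.16 to 0.51.

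**Figure D4:**
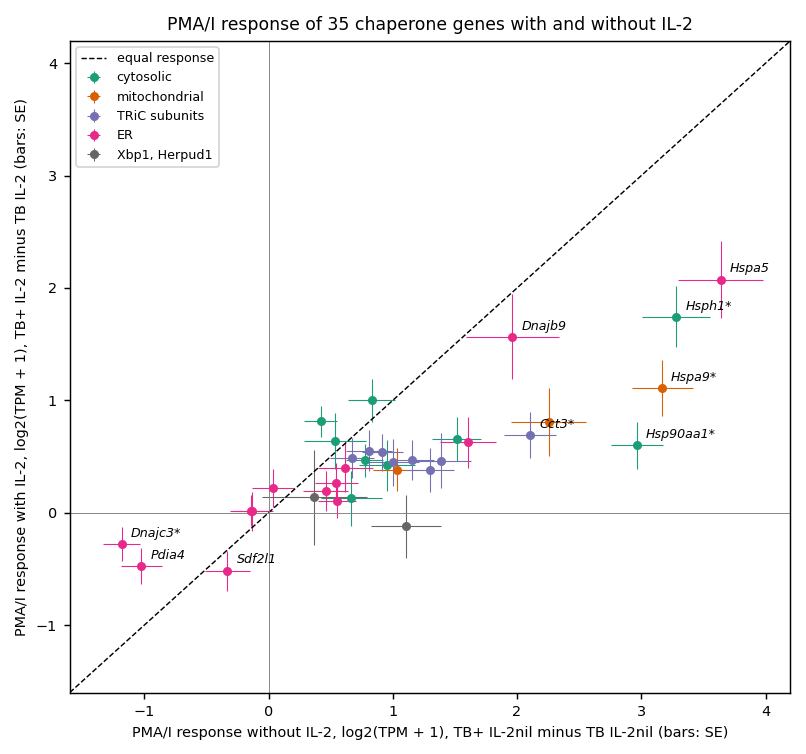
Response to PMA/I in log2(TPM + 1) without IL-2 (x axis, TB+ IL-2nil minus TB IL-2nil) and with IL-2 (y axis, TB+ IL-2 minus TB IL-2) for the 35 genes, coloured by role, with SE bars, a dashed line of equal response and an asterisk for an interaction with an adjusted P under 0.05. *Hsp90aa1* at 2.96 and 0.60, *Hspa9* at 3.17 and 1.11, *Hsph1* at 3.28 and 1.74 and *Cct3* at 2.11 and 0.69 lie below the line, and *Dnajc3* at -1.18 and -0.28 lies above it.

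Read by promoter motif, the 7 genes with an ER stress element had 6 higher with IL-2 before PMA/I (all but *Dnajc3*) and 6 after it (all but *Hspa5*), where 17.3% and 12.9% of all genes were higher. Of the 21 other members with a window, 14 and 3 were higher, and of the 13 ER genes as a whole 11 in each comparison. The 3 were the ER genes *Sdf2l1*, *Pdia4* and *Dnajb11*, and the only other ER gene among the 21, *Dnajb9*, was not called. Motif and compartment were therefore not separated by these counts. After PMA/I without IL-2, 4 of the 7 genes were higher (*Hspa5*, *Pdia6*, *Calr* and *Canx*), 1 was lower (*Dnajc3*) and 2 were not called (*Hsp90b1* and *Creld2*). In that comparison 20.1% of all genes were higher and 41.1% lower. Of the 21 other members with a window, 16 were higher and 1 lower. The 3 genes with a heat shock element (*Hspd1*, *Hspe1* and *Hsph1*) were all higher with IL-2 before PMA/I, 0 of them passed after it (1 lower at an unadjusted P under 0.05), and all 3 were higher after PMA/I without IL-2. Of the 25 other members with a window, 17 were higher in the first of these comparisons, 9 in the second and 17 in the third. These include *Hspa1a*, *Hspa1b* and *Dnajb1*, in which the exact search found no heat shock element. No difference between motif classes was tested.

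Ratios between members within a library do not depend on the scaling between libraries. The ratio of inducible to constitutive Hsp90 (*Hsp90aa1* over *Hsp90ab1*) was 0.107 to 0.199 in TB IL-2nil and 0.335 to 0.459 in the 9 other libraries, with no overlap. The ratio of BiP to Grp94 (*Hspa5* over *Hsp90b1*) was 0.591 to 0.877 in the 6 unstimulated libraries, 1.93 to 3.77 in TB+ IL-2 and 6.38 to 11.9 in TB+ IL-2nil, again with no overlap between these 3 ranges. The ratio of the mitochondrial chaperonin subunits (*Hspd1* over *Hspe1*) was 0.460 to 0.755 in TB IL-2nil and 0.862 to 1.65 in the others. The most abundant TRiC subunit exceeded the least abundant by 1.76 to 1.96 times in the 6 libraries with IL-2, by 2.33 to 4.27 times in TB IL-2nil and by 2.1 to 2.46 times in TB+ IL-2nil. In all 3 TB IL-2nil libraries the lowest subunit was *Cct3* and the highest *Cct2*, while *Cct7* or *Cct6a* was the lowest in the other libraries. With 3 libraries against 3, an exact permutation test cannot go below 0.1 (two-sided), so these ratios are given as a description.

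**Figure D5:**
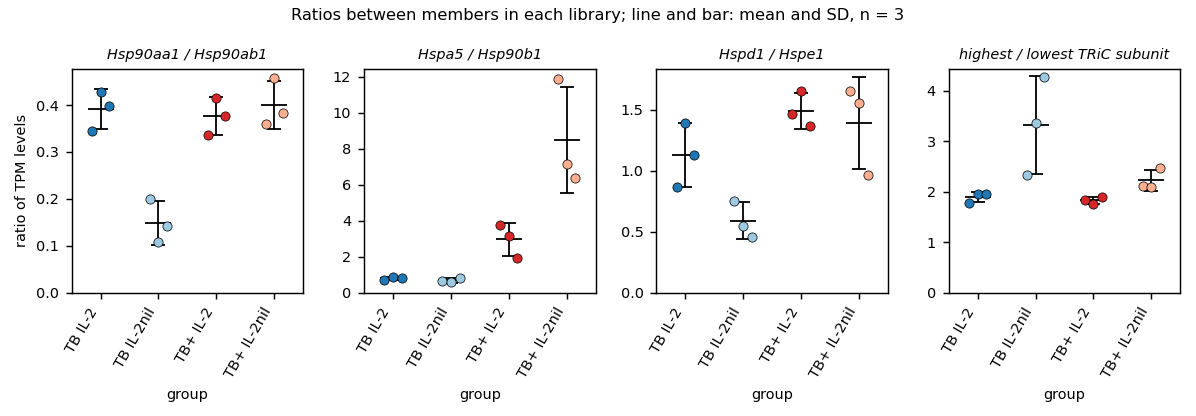
Ratios between TPM levels of chaperone genes within each of the 12 libraries (axes from 0), with mean and SD of the 3 libraries of a group. The Hsp90 ratio is lowest in TB IL-2nil (mean 0.149), the BiP to Grp94 ratio is highest in TB+ IL-2nil (mean 8.47), and the spread of the TRiC subunits is widest in TB IL-2nil (mean 3.32).

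Other genes of the same pathways were counted from 6 lists of 83 genes in all, of which 81 were among the genes tested. Before PMA/I, 27 of the 81 were higher with IL-2 and 9 lower, where 17.3% and 22.3% of all genes were. Of 29 cytosolic co-chaperones 12 were higher and 3 lower, led by the Hsp90 co-chaperones *Fkbp5* (2.03, adjusted P = 0.000507), *Stip1* (1.90, adjusted P = 6.65e-05) and *Fkbp4* (1.67, adjusted P = 0.000585). Of 6 subunits of prefoldin, which hands actin and tubulin to TRiC, 3 were higher and 1 lower, and of 10 mitochondrial chaperones and proteases 5 were higher and 1 lower. Of 16 ER folding and oxidation genes 7 were higher and 0 lower (limma), with *Fkbp2*, an ER prolyl isomerase, at 58.7 against 13.3 TPM on average (2.06, adjusted P = 0.00369). In limma 0 of 10 genes of ER-associated degradation were higher and 2 lower (0 and 3 at an unadjusted P under 0.05), and 0 of 10 UPR sensors and factors were higher and 2 lower (1 and 3 unadjusted), so that in both lists the share lower was near that of all genes.

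After PMA/I, 18 of the 81 genes were higher with IL-2 and 7 lower, where 12.9% and 8.4% of all genes were. The ER folding list again had 7 of 16 higher, with *Fkbp2* at 39.7 against 9.31 TPM (1.97, adjusted P = 0.00923), and the prefoldin gene *Pfdn6* was higher by 1.67 (adjusted P = 0.00331). None of the 10 UPR sensors and factors passed in limma (1 higher and 0 lower at an unadjusted P under 0.05).

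After PMA/I, 3 of the 10 UPR sensors and factors were higher and 1 lower with IL-2 kept, and 3 were higher and 5 lower without IL-2, with medians of 0.01 and -0.66. The 3 higher in both were *Atf6*, a UPR sensor (1.31 and 1.25), *Atf4* and *Ppp1r15a*. *Atf4*, the transcription factor of the integrated stress response, was at 569 against 124 TPM with IL-2 (2.17, adjusted P = 0.00024) and at 434 against 76.6 TPM without (2.52, adjusted P = 2.6e-05). *Ppp1r15a*, which encodes the phosphatase subunit that reverses that response, was higher by 3.24 (adjusted P = 0.00351) and 3.04 (adjusted P = 0.00214). *Hspa4l*, another gene of the Hsp110 family, had the largest response of the lists, from 8.72 to 119 TPM with IL-2 (3.65, adjusted P = 7.69e-06) and from 8.93 to 199.8 TPM without (4.29, adjusted P = 1.26e-06). Without IL-2 the co-chaperones *Bag5* and *Dnajb2*, the prefoldin gene *Pfdn2* and the ER oxidase *Ero1l* were higher by 2.05, 1.93, 1.89 and 1.99, and *Edem2*, of ER-associated degradation, *Eif2ak3*, the UPR sensor PERK, and *Trib3* fell by 1.61, 1.87 and 1.83 on the log2 scale. In that comparison 27 of the 81 genes were higher and 21 lower, where 20.1% and 41.1% of all genes were, and with IL-2 kept 10 were higher and 8 lower, where 11.8% and 23.3% were.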

How the data were processed

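RNA-Seq of rRNA-depleted, strand-specific libraries was done by the authors. Per the methods and the submitters' processing notes, trimming was with Trimmomatic 0.32, alignment with HISAT2 2.1.0 (mm9) and quantification of RefSeq models with StringTie 1.3.3. The deposited values are FPKM for each gene and library. TPM is the unit in the methods, but library totals range from 193815 to 420487, where TPM would give 1e+06.

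Values were converted to TPM, a gene was kept if any library exceeded 1 TPM, and libraries were scaled to a common 75th percentile. The log2(TPM + 1) values of 12 libraries in 4 groups were fitted in limma 3.58.1 (R 4.3.3) without a block, with 8 residual degrees of freedom, so that differences of genes with few TPM are understated. Genes were called at an adjusted P under 0.05 (Benjamini-Hochberg over 12442 genes), and counted further at more than 3-fold, the study's threshold. On simulated data for TB IL-2 against TB IL-2nil, 200 of 12442 genes were changed. Of those changed by 1 on the log2 scale 49% were called, and of those changed by 2, 85%. In the measured data 17.3% of genes were called higher and 22.3% lower, so the adjustment differs and these rates do not carry over directly.

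The 35 genes, the pathway lists and the tests were chosen with earlier results of these data known. All 35 are named. Genes of the lists are named where called at 3-fold, at most 3 per list, direction and comparison. The exception is *Atf6*, which is named although its differences were below 3-fold. 2 libraries were placed as in the study's table of expression values. Placed so, libraries with the same replicate number deviated together from their group means (18 of 18 correlations over 0.1, from 0.101 to 0.531), and what they share is not given in the sources used here. Each fit was repeated under 21 alternatives. Protein sequences were not used here. Figures were drawn with matplotlib.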

Additional observations from a re-analysis of the deposited data

Results flagged for a closer look

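The response to PMA/I differed between cells with and without IL-2, by the test of that difference itself (the interaction term in limma, adjusted over all genes), for 5 of the 35 genes. Of these, 4 were lower and 1 higher, where 2.66% of all genes were lower and 1.57% higher. The difference, response with IL-2 minus response without it in log2(TPM + 1), was -2.36 for *Hsp90aa1* (SE 0.29, adjusted P = 0.0106), -2.06 for *Hspa9* (SE 0.35, adjusted P = 0.0174), -1.54 for *Hsph1* (SE 0.39, adjusted P = 0.0496), -1.41 for *Cct3* (SE 0.29, adjusted P = 0.0284) and 0.90 for *Dnajc3* (SE 0.22, adjusted P = 0.0426). In each of the 5 genes all 3 libraries of TB+ IL-2nil lay outside the range of TB IL-2nil, as in 26 of the 35 genes. The share over all genes was not counted, so this cannot be read as particular to these genes. This separation describes the response without IL-2 and not the difference between the responses. None of the 5 passed without the 2 libraries in doubt, at adjusted P = 0.0583 to 0.165. Without scaling between libraries 0 of the 35 genes passed. Over 21 alternatives *Cct3* was called in 9 and *Hsph1* in 5. With 1 library left out, *Hsp90aa1* and *Hspa9* were called in all 12 fits, while the call of *Dnajc3* was kept in 1. With 3 libraries in each group, no test for a single outlying library was made.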

How the results depend on the processing

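Of the 85 calls of a gene in a comparison, 64 were kept without the 2 libraries in doubt, 73 with quantile normalization, 51 without scaling to the 75th percentile, 77 with a pseudocount of 0.1, 81 without a filter, 85 with a mean-variance trend and 67 to 83 with 1 library left out. By the labels of the 2 libraries, 3 were kept. No counts were available, so depth could not be weighed gene by gene.

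With the libraries as labelled, 0 genes were higher in TB IL-2 against TB IL-2nil, in TB+ IL-2 against TB IL-2 and in TB+ IL-2 against TB+ IL-2nil by either threshold, 0 were lower in TB+ IL-2 against TB IL-2, 1 was higher in TB+ IL-2nil against TB IL-2nil by either threshold, and 0 had an interaction in either direction, with the terms themselves as before (-2.36 for *Hsp90aa1*) and a wider spread. Single values that turned were *Hsp90aa1* at -0.40, *Cct3* at -0.070 and *Pdia6* at -0.13 (TB+ IL-2 against TB IL-2), *Canx* at -0.074 (TB+ IL-2nil against TB IL-2nil) and *Pdia6* at -0.069 (TB+ IL-2 against TB+ IL-2nil). This follows from the construction, since each library then stands in the other's group.

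For TB+ IL-2 against TB IL-2, 7 genes were higher and 1 lower without the 2 libraries, 6 were higher with quantile normalization, 6 were higher and 0 lower without scaling, and 0 were lower with a pseudocount of 0.1 and without a filter. At 3-fold, 5 were higher with a pseudocount of 0.1. For TB+ IL-2nil against TB IL-2nil without scaling, 12 were higher, 5 at 3-fold, and 1 was lower at 3-fold, with *Calr* at -0.0077 and *Canx* at -0.089, and with quantile normalization *Hsp90b1* was at -0.42. For TB+ IL-2 against TB+ IL-2nil, 1 was higher at 3-fold with quantile normalization. For the interaction, 0 were higher without the 2 libraries, without scaling and with a pseudocount of 0.1, and 0 were lower without the 2 libraries and without scaling. The causes of these changes were not tested.

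With the replicate number as a block, all 85 calls were kept and 12 gained, and 8 genes instead of 4 had a lower interaction term. The pairing changed no other count by over 1.5 times.

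With 1 library left out, 21 to 26 genes were higher (4 to 6 at 3-fold) in TB IL-2 against TB IL-2nil, 5 to 16 higher (2 to 3 at 3-fold) and 0 to 2 lower in TB+ IL-2 against TB IL-2, 22 to 27 higher (7 to 10 at 3-fold) and 2 lower in TB+ IL-2nil against TB IL-2nil, 8 to 11 higher (2 to 3 at 3-fold) and 0 to 1 lower in TB+ IL-2 against TB+ IL-2nil, and 0 to 1 higher and 2 to 10 lower in the interaction. The 5 came without TB+ IL-2 replicate 1, and the 10 without TB+ IL-2nil replicate 3, where 9 of the other 11 fits gave 2.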
